A study of Mus musculus with 20 samples.

Results

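Among the macrophages grown in culture from monocytes (Mo-MF), a small set of cells still carried the transcripts of Ly6c2 and Ccr2 by which inflammatory monocytes are known. The cells were selected on their own counts: at least 2 Ly6c2 counts, at least 1 Ccr2 count and fewer than 100 counts of S100a8 and S100a9 together, a limit that keeps out cells with the calprotectin load of neutrophils. This gate held 75 of the 10235 cells of the Mo-MF libraries, 35 of 4846 in replicate 1 and 40 of 5389 in replicate 2. They are called monocyte-gate cells here. They were compared with the 4163 and 4701 macrophages of the same libraries that had no Ly6c2 count, at least 1 Csf1r count and fewer than 50 counts of S100a8 and S100a9 together.

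The scRNA-seq part of the study holds 31683 cells: 2 libraries of Mo-MF, made from bone marrow monocytes in medium conditioned by 4T1.2 mouse breast cancer cells, 2 libraries of macrophages made from bone marrow B cells in the same medium (B-MF), and 4 libraries of macrophages sorted from 4T1.2 tumors (TAM). The labels name the Mo-MF libraries as replicates and do not say that they came from separate mice or cultures, so the spread between them may be technical. The study's methods describe its mice in general as young females, and its text names 4 mice with 4T1.2 tumors as the source of TAM. Genotype, strain and added cytokines of the single culture libraries were not given in the sources used here, and all cultured groups share the conditioned medium. Per the study's methods, the suspensions loaded for sequencing were sort-purified.

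Monocytes leave the bone marrow for the blood with LY6C on their surface and CCR2, the receptor for the chemokine CCL2, which guides them to inflamed tissue and tumors. Signals through CSF1R then drive them to become macrophages, and during this change Ly6c2, Ccr2, Vcan, Plac8 and Chil3 are known to go down while complement C1q, lysosomal and lipid-handling genes go up. Whether the gated cells were left from the plated monocytes or arose in the culture cannot be told apart from these libraries.

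The sequences upstream of 3 of the genes are shown first, because Ly6c2 defines the cells, Ly6c1 is its close copy, and Saa3 was among the genes with the highest counts and differences. Each holds the 150 bases before the most upstream start listed by RefSeq on GRCm38.p6, all on the minus strand. Ly6c2 lies at chr15:75111972-75112121, Ly6c1 at chr15:75048838-75048987 and Saa3 at chr7:46715677-46715826. Capitals mark matches, on either strand, to the PU.1 core GAGGAAGT (in Ly6c2), the TATA box TATAAA (in Ly6c1), and the C/EBP core TTGCNNAA and the core of the interferon-stimulated response element (both in Saa3). The same stretches of Chil3, Ccr2, Vcan, Plac8, F13a1 and Ifitm1 held no match to these motifs and are not shown.
Ly6c2: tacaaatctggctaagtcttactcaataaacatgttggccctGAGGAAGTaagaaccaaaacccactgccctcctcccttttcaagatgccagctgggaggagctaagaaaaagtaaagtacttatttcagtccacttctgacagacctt
Ly6c1: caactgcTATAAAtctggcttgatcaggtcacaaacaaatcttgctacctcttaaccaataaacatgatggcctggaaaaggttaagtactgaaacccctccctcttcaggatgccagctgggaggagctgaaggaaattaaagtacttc
Saa3: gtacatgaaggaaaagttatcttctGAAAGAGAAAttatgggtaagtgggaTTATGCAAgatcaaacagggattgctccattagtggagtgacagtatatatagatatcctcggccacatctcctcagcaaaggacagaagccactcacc
In the 250 bases before each listed start, the C/EBP core was present for 10.8% of the 27025 genes with a listed promoter and for 8.97% of the 6869 of them that were tested here. It was present for 6 of the 26 listed genes that were over 3 log2 units higher in monocyte-gate cells of both libraries, namely C3, Clec4e, Lcn2, Plac8, Ptgs2 and Saa3. Among the 82 listed genes over 2 log2 units higher its share was 15.9%, and among the 148 over 1 log2 unit lower 12.2%, so that both directions were above the tested genes. The PU.1 core was present for 3 of the 26 genes, Ctsc, Ly6c1 and Prtn3, against 3.39% of the tested genes, and the interferon-stimulated response element core for 2, Saa3 and Tgfbi, against 3.65%. Among the lower genes the shares of these motifs were 4.05% and 5.41%, likewise above the tested genes. The PU.1 match of Ly6c1 and the C/EBP match of Plac8 lie before the other listed start of each gene. Their most upstream starts had neither. A match is a description of letters and not of a bound site, and the TATA box, also found for 6 of the 26 and for 11.5% of the lower genes against 7.44% of the tested genes, does not overlap the other matches shown.

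The values that chose the cells are given as a description. The mean of Ly6c2, which encodes the LY6C2 surface protein, reached 8.46 corrected counts per cell in replicate 1 and 10.5 in replicate 2, and single cells ran from 2 to 51. Ccr2 had means of 26.6 and 23.1 and a lowest cell at 2, although the gate asked for only 1 count. Without the Ccr2 condition the gate would have held 76 cells, so that 75 of the 76 cells with at least 2 Ly6c2 counts under the S100a8 and S100a9 limit had Ccr2. In the comparison cells Ccr2 averaged 0.331 and 0.298. The sum of S100a8 and S100a9 had a median of 3 in monocyte-gate cells and was under 20 in 57 of them.

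The share of monocyte-gate cells was 0.722% in replicate 1 (exact 95% binomial interval 0.504% to 1.0%) and 0.742% in replicate 2 (0.531% to 1.01%), where intervals cover counting error only. The libraries differed by less than this error. In B-MF no cell passed, 0 of 5237 and 0 of 5326 cells, which allows a share of up to 0.0573% and 0.0563% when 3 counts are taken as the limit of a count of 0. The exact 95% intervals of these shares end at 0.0704% and 0.0692%, and no B-MF cell had a single Ly6c2 count. Though under 1% of the Mo-MF cells, monocyte-gate cells held 49.6% and 37.4% of the libraries' Vcan counts and 24.2% and 25.4% of those of Saa3. Their 38.6% and 48.2% of the Ly6c2 counts follow in part from the gate, which required at least 2 of them. Cells with at least 100 counts of S100a8 and S100a9 together, called neutrophil-gate cells here, numbered 924 and held a further 58.4% and 48.0% of the Ly6c2 counts.

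The gate sits within a wider range of cells. Just outside it were 14 and 12 cells with exactly 1 Ly6c2 count and at least 1 Ccr2 count. These had means of 9.86 and 19.9 for Plac8, 161 and 170 for Saa3 and 12.1 and 11.3 for C1qc. Just inside, the 6 and 10 cells with 2 or 3 Ly6c2 counts had means of 11.3 and 15 for Plac8, 102 and 182 for Saa3 and 4.17 and 6.90 for C1qc. The cells on both sides of the Ly6c2 limit thus had Plac8 and Saa3 in the same range, and the limit of 2 is a choice rather than a gap. On the other side, 16 and 20 cells met the Ly6c2 and Ccr2 conditions but had 100 or more counts of S100a8 and S100a9. Their means of Lcn2, a neutrophil granule protein, were 32.1 and 54.5, against 4.66 and 4.13 inside the gate. Their means of Vcan were 17.4 and 11.45 against 18.7 and 10.8, and of Plac8 26.4 and 27.25 against 34.2 and 30.6. Saa3 was lower, at 94.6 and 115 against 236 and 213. Vcan and Plac8 were thus near their level inside the gate, although these cells are counted among the neutrophil-gate cells.

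The 3 markers the gate did not use are given as a description, because they were chosen with earlier results of these data known. Vcan, a matrix proteoglycan typical of classical monocytes, had means of 18.7 and 10.8 in monocyte-gate cells and 0.0432 and 0.0466 in the comparison cells, and 67 of the 75 cells had a count. Plac8, a small cysteine-rich protein of monocytes and granulocytes, had means of 34.2 and 30.6 against 0.676 and 0.646, with a count in 73 cells. Chil3, a secreted chitinase-like protein, had means of 14.1 and 14.8 against 0.0425 and 0.0357, with a count in 61 cells. The 3 markers thus had higher means in monocyte-gate cells than in the comparison cells of both libraries. Neutrophil-gate cells had lower Chil3 means of 4.47 and 4.85 but, being 924 cells, held 72.5% and 70.0% of the libraries' Chil3 counts.

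Monocyte-gate cells also had Csf1r, whose signals act on monocytes as described above, and transcripts of macrophage markers. Csf1r, the receptor of the macrophage growth factor M-CSF, was found in 74 of the 75 cells with a median of 11, and had means of 12.03 and 10.4 against 6.13 and 5.90 in the comparison cells, where a count of it was required. Adgre1, which encodes F4/80, had means of 5.23 and 4.50 in monocyte-gate cells and 5.17 and 5.17 in the comparison cells. Adgre1 differed by -0.09 on the log2 scale, with a standard error of 0.10 and limma's adjusted p at 0.540, which does not show that the levels were alike. The 7 macrophage markers together, Adgre1 and the C1q genes among them, summed to 19.1 and 32.4 counts per cell against 62.4 and 60.5. In neutrophil-gate cells they summed to 37.1 and 39.7, so these transcripts were not particular to monocyte-gate cells. How far they came from other cells or background was not tested.

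**Figure D1:**
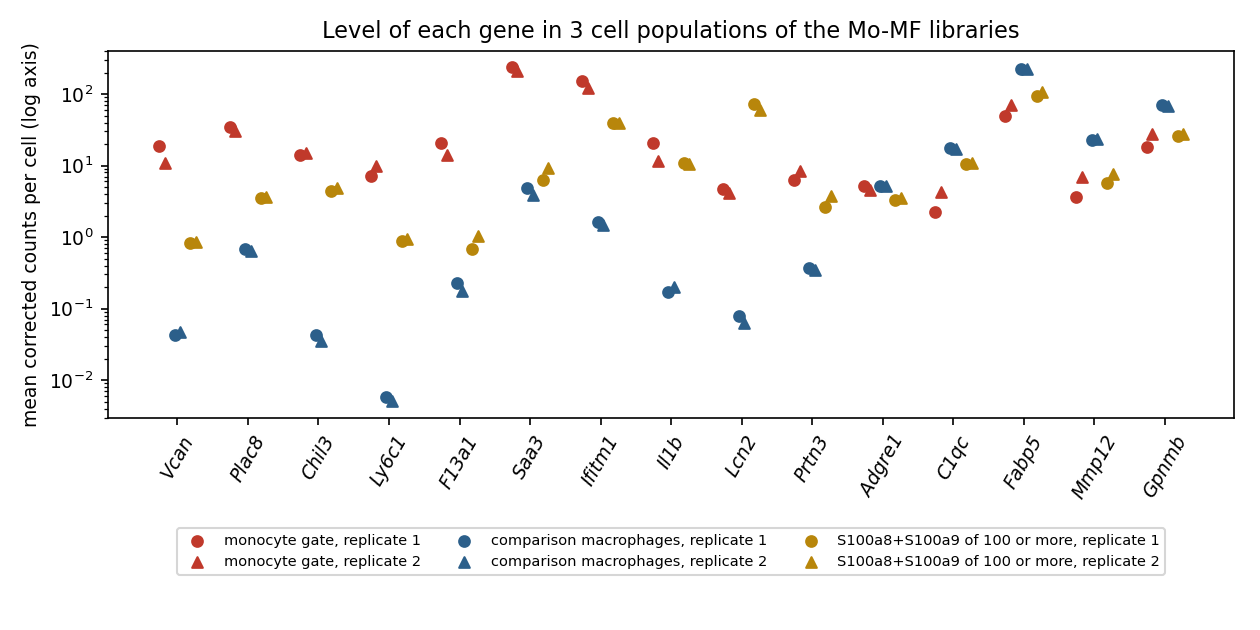
Mean corrected counts per cell (log axis) of 15 genes in each Mo-MF library, for monocyte-gate cells (red), comparison macrophages (blue) and neutrophil-gate cells (ochre); circles are replicate 1 and triangles replicate 2. Vcan, Plac8 and Saa3 were highest in monocyte-gate cells, Lcn2 in neutrophil-gate cells, Adgre1 lay between 3.28 and 5.23 throughout, and C1qc, Fabp5, Mmp12 and Gpnmb were highest in the comparison cells.

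Markers of other cell types were measured in the same cells, and their part in the differences was not tested. The 10 neutrophil markers summed to 24.6 and 20.5 counts per cell in monocyte-gate cells, to 3.27 and 3.09 in the comparison cells and to 1658 and 1544 in neutrophil-gate cells. Ltf was at 0 in replicate 1 and Camp in replicate 2, and Ngp, a granule protein of immature neutrophils, had a count in 4 of the 75 cells. The T and NK, B-cell and dendritic-cell markers in the table summed to at most 0.0857 counts per cell for each type. The 7 basophil, mast cell and eosinophil markers in the table were all at 0 in monocyte-gate cells. Of the 6 progenitor markers Kit and Cd34 were at 0 in both libraries, while Prtn3 and Elane, described below, were not. No barcode of a monocyte-gate cell occurred in another library, whereas 14 barcodes were shared between the Mo-MF libraries overall. No doublet caller was run. Monocyte-gate cells had median totals of 18208 and 18072 corrected counts and the comparison cells 19512 and 19383.

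For the comparison across genes, the counts of each gene were averaged over the cells of a population in each library, 0.1 was added, and the log2 difference was tested by limma with the library as a block. The 5 gate genes were left out, 8624 genes were tested, and all differences are given on that scale, where those of low genes come out too small. The filter kept genes averaging at least 0.1 over both populations. Genes near 0 in the comparison cells thus passed only through the gated cells and could only come out as higher. Chil3, Vcan, Ly6c1, Fcnb, Cxcl10 and Ighm were among them. In each population on its own, 7957 genes averaged at least 0.1, of which 17.6% were higher and 12.7% lower, and for most of the gene lists below the count over such members is given as well. The test sets the average difference for cells chosen by this gate against a spread drawn largely from other genes of like level. The standard errors rest on the same spread. Neither says how well a single gene repeated: H2-Aa differed by -2.22 in replicate 1 and 0.36 in replicate 2 and was still called. With the adjusted p held to 0.05, monocyte-gate cells had 1555 higher genes (18.0%) and 1168 lower ones (13.5%). Without the block, the counts were 1387 higher and 908 lower. Only 1 residual degree of freedom belongs to each gene, so the p rests on a spread shared across genes: without limma's trend of spread on level, 857 genes were higher and 653 lower.

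Over all 75 cells, the differences toward higher values were the larger ones. In both libraries, 380 genes (4.41%) were over 1 log2 unit higher and 195 genes (2.26%) were over 1 log2 unit lower. These counts depend on the pseudocount and on the cells: with a pseudocount of 1 they were 127 and 36, and with the gated cells under 30 Fabp5 counts, described below, 431 genes were higher and 540 lower, so that the balance of the 2 directions turned. Beyond 2 log2 units 108 genes were higher and 3 lower, and beyond 3 log2 units 33 were higher and 0 lower. The median over all genes was 0.003. The plot of both libraries' differences shows this asymmetry.

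**Figure D2:**
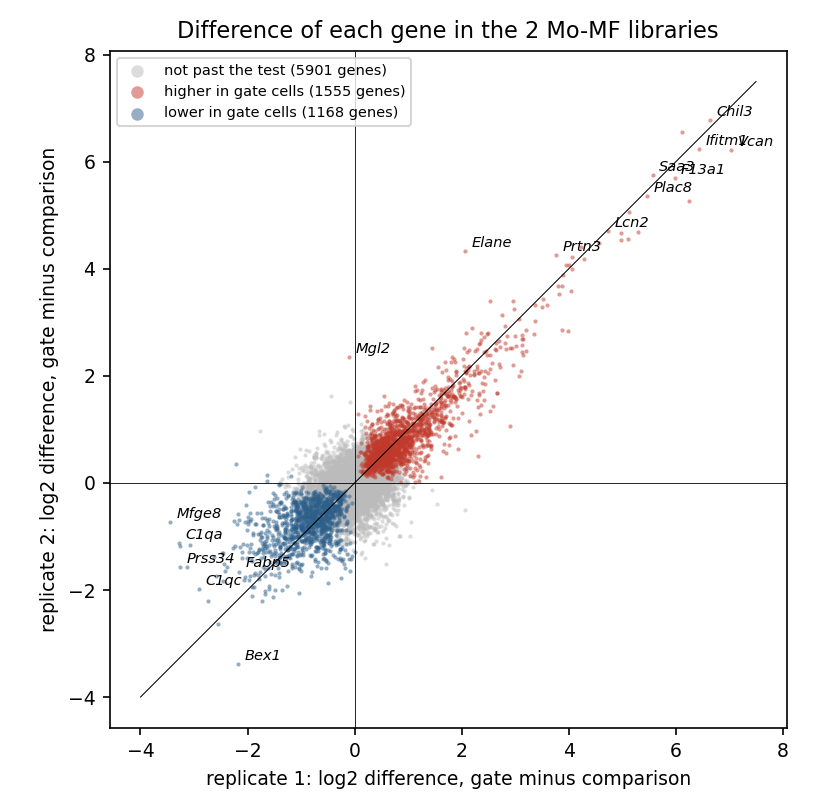
Log2 difference of each of the 8624 genes, monocyte-gate minus comparison cells, in replicate 1 (horizontal) and replicate 2 (vertical); red and blue points passed the limma test, and the line marks equal differences. Higher genes reached 6.71 on average and lay along the line, lower genes ended at -2.78, and Elane, Mgl2, Mfge8 and C1qa lay away from the line.

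The 10 largest increases were those of Chil3, Vcan, Ifitm1, Ly6c1, F13a1, Il1b, Saa3, Plac8, Plbd1 and Hp. Of these, Chil3, Vcan and Ly6c1 were tested only through the gated cells and could only come out as higher. Saa3, an acute-phase serum amyloid made by myeloid cells, had means of 236 and 213 counts against 4.84 and 3.85, a log2 difference of 5.66 (standard error 0.06), and every one of the 75 cells had a count. Ifitm1, an interferon-induced transmembrane protein, had means of 151 and 120 against 1.65 and 1.49, a log2 difference of 6.34 (0.07). In neutrophil-gate cells Saa3 was 6.24 and 9.34 and Ifitm1 39.1 and 39.3, so that both had their highest means in monocyte-gate cells in each library. F13a1, the A chain of coagulation factor XIII, had means of 20.6 and 14.2 against 0.227 and 0.175. Plbd1, a phospholipase B-like protein, had 7.69 and 6.40 against 0.124 and 0.0944. In B-MF, Saa3 averaged 5.38 and 4.37 and F13a1 0.893 and 0.823.

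Ly6c1 followed Ly6c2 closely. Its means were 7.23 and 9.80 against 0.00577 and 0.00511, a log2 difference of 6.34 (standard error 0.18). Across the 75 cells the counts of Ly6c1 and Ly6c2 had a Pearson correlation of 0.89 and a Spearman correlation of 0.80, as a description of cells from 2 libraries. The longest coding transcripts of the pair in GENCODE are identical at 97.6% of 822 aligned bases. In the last 400 bases of Ly6c2, where a 3′ assay reads, 25.1% of the stretches of 50 bases occur letter for letter in Ly6c1. Reads of the pair can be divided between the 2 genes or dropped, so Ly6c1 is uncertain as a separate gene. Over the 250 bases upstream of 1 listed start of each gene, which may not be the start shown above, 75.9% of 216 aligned bases were identical.

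Of the 20 monocyte genes listed, 19 rose and none fell, against 18.0% higher among all genes, and the list's median log2 difference was 3.05. Over the 15 members that reached the filter in both populations, 14 rose. Vcan, Plac8 and Chil3 are in this list, which was chosen with earlier results known. S100a10, an annexin partner, did not pass, with means of 7.91 and 10.0 against 8.32 and 8.33. Hp, haptoglobin, rose from 0.387 and 0.370 to 19.1 and 12.1, and neutrophil-gate cells had 13.1 and 12. The Hp levels of monocyte-gate and neutrophil-gate cells thus lay side by side in replicate 2.

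Genes of nonclassical monocytes moved in both directions. Of the 12 listed, 6 were tested, 4 rose and 2 fell, against 18.0% higher and 13.5% lower among all genes. Only 3 of them reached the filter in both populations, of which 1 rose and 2 fell, and Itgal, Nr4a1 and Cx3cr1 were tested only through the gated cells. Itgal, the integrin chain of LFA-1, had means of 1.0 and 0.750 against 0.0267 and 0.0253. Nr4a1, the nuclear receptor that patrolling monocytes need, had 0.886 and 0.350 against 0.0932 and 0.0853. Cx3cr1, the fractalkine receptor, had 0.229 and 0.275 against 0.00697 and 0.0108. The genes that fell were Cd36, a scavenger receptor, and Fabp4. Fabp4, a fatty acid-binding protein, fell from 15.7 and 16.3 to 2.46 and 6.15. Treml4, Spn, Eno3, Cd300e and Adgre4 were under the limit on low values.

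Granule protease genes that mark granulocyte-monocyte progenitors were present in part. Of 14 listed, 6 were tested, 5 rose and 1, Clec12a, fell, against 18.0% higher and 13.5% lower among all genes. Elane and Fcnb were tested only through the gated cells, and over the 4 members that reached the filter in both populations 3 rose and 1 fell. Prtn3, proteinase 3, had means of 6.29 and 8.50 against 0.370 and 0.352, a count in 64 of the 75 cells, and 2.65 and 3.78 in neutrophil-gate cells. Elane, neutrophil elastase, had means of 0.343 and 2.05 against 0.00552 and 0.00617, with a count in 13 cells and up to 39 in a single cell. Its level in replicate 2 was thus carried by few cells, and its call was lost without the block. Fcnb, a ficolin, had 0.343 and 0.350 against 0.00120 and 0.000425. Igsf6, an immunoglobulin superfamily receptor, had 3.54 and 2.70 against 1.51 and 1.45. Mpo, the myeloperoxidase of early granulocyte and monocyte progenitors, had a count in 4 cells.

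Of 15 neutrophil genes listed, 9 were tested and 8 rose, against 18.0% higher among all genes. Lcn2, Il1r2 and Cxcr2 were tested only through the gated cells, and over the 4 members that reached the filter in both populations 3 rose. Lcn2 had means of 4.66 and 4.13 against 0.0778 and 0.0625, Il1r2, the decoy receptor of IL-1, had 2.06 and 1.98 against 0.0286 and 0.0302, and Cxcr2, the neutrophil chemokine receptor, had 0.543 and 0.425 against 0.0420 and 0.0685. In neutrophil-gate cells Lcn2 was 72.7 and 59.98, Il1r2 2.69 and 2.39 and Cxcr2 9.0 and 8.26. Lcn2 and Cxcr2 in monocyte-gate cells were thus closer to the comparison cells in counts, while Il1r2 was near the neutrophil-gate level. On the log2 scale Lcn2 was instead closer to neutrophil-gate cells. Mmp8, neutrophil collagenase, had 20.4 and 19.7 against 4.78 and 4.67. Mmp9, gelatinase B, did not pass, with 0.743 and 0.150 against 0.368 and 0.398. In cells with S100a8 and S100a9 under 20, the log2 difference of Lcn2 was 3.94 in place of 4.72 and that of Mmp8 1.79 in place of 2.06.

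Inflammatory mediators moved unequally. Of 21 listed chemokine and inflammatory genes 17 were tested, 8 rose and 6 fell, with a median of 0.50. The shares over all genes were 18.0% higher and 13.5% lower. Over the 14 that reached the filter in both populations 6 rose and 6 fell, and Ptgs2 was tested only through the gated cells. Il1b, the cytokine IL-1β, had means of 20.5 and 11.5 against 0.172 and 0.202 and of 10.9 and 10.5 in neutrophil-gate cells. Ptgs2, the prostaglandin-forming enzyme COX-2, had 1.97 and 2.08 against 0.0411 and 0.0702. Cxcl2, a neutrophil attractant, had 10.7 and 5.15 against 0.582 and 0.631. In neutrophil-gate cells Ptgs2 was 1.84 and 1.47 and Cxcl2 28.6 and 29.8, so that Cxcl2 was highest there. In the other direction Ccl8, a monocyte attractant of macrophages, fell from 25.8 and 24.1 to 2.60 and 10.7. Its log2 difference was -3.26 in replicate 1 and -1.17 in replicate 2, and its call was lost without the block. Ccl7 and Ccl3, chemokines of the same family, did not pass, with log2 differences of -0.22 and -0.03.

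Interferon-stimulated genes rose broadly. Of 22 listed, 21 were tested, 19 rose and none fell, against 18.0% higher among all genes, and the median log2 difference was 0.94. Over the 20 that reached the filter in both populations 18 rose. Isg15, the ubiquitin-like interferon product, had means of 6.06 and 6.20 against 1.81 and 1.74, and Ifit1, which binds foreign RNA, had 3.31 and 1.98 against 0.548 and 0.533. Zbp1, a sensor of nucleic acids, had 3.26 and 3.0 against 0.951 and 0.873. Cxcl10, an interferon-induced chemokine, had 0.514 and 0.175 against 0.00288 and 0.00106. Isg15 was also at 5.52 and 5.67 in neutrophil-gate cells, so that its level did not set the gated cells apart from them. Rsad2 and Stat2 did not pass, with log2 differences of 0.38 and 0.25.

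Receptors for migration divided. Of 18 listed, 17 were tested, 9 rose and 5 fell, with Cxcr4, C3ar1, S1pr1 and Itgb1 among the latter. Over all genes 18.0% were higher and 13.5% lower. Fpr2 and Fpr1 were tested only through the gated cells, and over the 15 that reached the filter in both populations 7 rose and 5 fell. The formyl peptide receptors Fpr2 and Fpr1 had means of 1.69 and 1.60 against 0.0288 and 0.0330, and of 0.914 and 0.525 against 0.0161 and 0.0149. Ccr1, a receptor of several inflammatory chemokines, had 8.37 and 7.45 against 1.26 and 1.24. Itgb7, an integrin β chain, had 1.83 and 1.78 against 0.262 and 0.246. In neutrophil-gate cells Itgb7 was 0.207 and 0.159, Fpr2 2.08 and 1.92, Fpr1 1.79 and 1.87 and Ccr1 8.53 and 8.72. Fpr2, Fpr1 and Ccr1 were thus higher there than in monocyte-gate cells, and Itgb7 was lower. Itgb2, the common β chain of leukocyte integrins, had 4.49 and 4.0 against 4.09 and 3.98 and did not pass. Itga6 did not pass either, with a log2 difference of -0.40.

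Among 24 myeloid transcription factors tested, of 28 listed, 14 rose and 5 fell, or 13 and 4 of the 22 that reached the filter in both populations. Those that fell were Cebpa, Mitf, Bhlhe41, Id2 and Pparg, a nuclear receptor that controls lipid genes in macrophages. For comparison, 18.0% of all genes were higher and 13.5% lower. Egr1, an immediate-early factor, had means of 8.4 and 7.35 against 0.642 and 0.586. B-MF had Egr1 at 7.4 and 6.97 and neutrophil-gate cells at 6.29 and 5.72, so that its comparison level was the low one. Cebpd, which is induced by inflammatory signals, had 3.86 and 3.73 against 0.452 and 0.471, and was higher in neutrophil-gate cells at 7.27 and 7.02. Hif1a, the oxygen-sensitive factor, had 9.60 and 6.98 against 1.58 and 1.51, and Runx3 had 1.97 and 1.98 against 0.379 and 0.384. In neutrophil-gate cells Hif1a was 3.54 and 3.44 and Runx3 0.322 and 0.361. Irf8, which monocyte development needs, had 5.06 and 5.25 against 5.16 and 5.01, and its log2 difference of 0.02 had a standard error of 0.10 and did not pass (limma, adjusted p = 0.916). Bhlhe40 had a log2 difference of -0.30 and did not pass.

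Of 14 listed genes of growth factor and cytokine signals 12 were tested, 6 rose and 3 fell, or 5 and 3 of the 11 that reached the filter in both populations. Those that fell were Il3ra, Tgfbr2 and Il10rb. Among all genes 18.0% were higher and 13.5% lower. Ifngr1, the interferon-γ receptor chain, had means of 9.54 and 8.03 against 2.44 and 2.34. Il6ra, the IL-6 receptor, had 1.97 and 1.23 against 0.571 and 0.533. Csf2rb, the shared β chain of the GM-CSF and IL-3 receptors, had 9.80 and 8.65 against 5.61 and 5.53. Csf2ra and Csf2rb2, further chains of this family, had log2 differences of 0.08 and -0.08 and did not pass. Csf1, the gene of M-CSF itself and tested only through the gated cells, had 1.20 and 0.250 against 0.0733 and 0.0683. The difference of Csf1 was thus uneven between libraries, and it failed the test in cells with S100a8 and S100a9 under 20, where it was 0.69 in place of 1.98, and without the block.

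The genes that define mature macrophages were lower, but not all of them. Of 20 macrophage identity genes 16 were tested, 9 fell and 3 rose, against 13.5% lower among all genes. All 16 reached the filter in both populations. The 3 that rose were Pf4, the Fc receptor gene Fcgr1 and the scavenger receptor gene Msr1. C1qa, C1qb and C1qc encode the chains of complement C1q. C1qc fell from 17.4 and 17.0 to 2.23 and 4.23, C1qb from 16.8 and 15.8 to 1.83 and 5.25, and C1qa from 11.5 and 11.1 to 1.09 and 5.05. The C1q genes were thus less reduced in replicate 2, where 4 cells had at least 10 C1qa counts against 1 cell in replicate 1, and the call of C1qa was lost without the block. Trem2, a lipid-sensing receptor, fell from 34.9 and 34.9 to 14.5 and 16.3. Dab2, an endocytic adaptor, had 5.91 and 4.23 against 5.27 and 5.58 and did not pass.

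Most lipid, matrix and lysosomal genes fell. Of 15 tested genes of the lipid and matrix list, of 16 listed, 14 fell and 1, the collagenase gene Mmp13, rose, with a median log2 difference of -1.11. Over the 13 that reached the filter in both populations, 13 fell, against 12.7% of all genes at that filter. Fabp5, an intracellular fatty acid carrier, had means of 50 and 70.8 against 223 and 223. Mmp12, macrophage elastase, had 3.69 and 6.93 against 22.6 and 23.5, and Gpnmb, a glycoprotein of lipid-laden macrophages, had 18 and 27.5 against 71.2 and 67.5. Mmp14, a membrane-bound matrix protease, had 0.229 and 0.200 against 0.942 and 0.895.

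Of 25 lysosomal genes tested, of 26 listed, all at the filter in both populations, 20 fell and 2 rose, Ctsc and Man2b1, with a median of -0.71. All genes at that filter were lower in 12.7% and higher in 17.6%. Lipa, the lysosomal acid lipase, had 6.40 and 7.90 against 19.4 and 19.3, Naglu, an enzyme that breaks down heparan sulfate, had 0.714 and 1.08 against 2.72 and 2.68, and Atp6v0d2, a proton pump subunit, had 3.14 and 2.0 against 8.16 and 8.27. Ctsc moved the other way. This cathepsin, which activates granule serine proteases such as those encoded by Prtn3 and Elane, had means of 26.3 and 24.6 against 2.46 and 2.38, a log2 difference of 3.34 (standard error 0.09). Npc2 and Lamp2 did not pass, with log2 differences of -0.14 and 0.14.

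The largest decreases also held genes outside these lists. Bex1, a small adaptor protein, fell from 5.25 and 5.38 to 1.09 and 0.425, and Ednrb, the endothelin receptor B, from 2.32 and 2.39 to 0.314 and 0.30. Gng11, a G protein γ chain, fell from 3.1 and 3.11 to 0.486 and 0.800. Gm42418, a locus that overlaps ribosomal RNA sequence and is therefore uncertain, fell from 367 and 317 to 54.8 and 68.3. Prss34, a basophil protease, had no count in any of the 75 cells and 0.859 and 0.198 in the comparison cells, so that it differed between the libraries themselves.

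Cell cycle genes were lower. Of 16 listed, 15 were tested, 10 fell and none rose, with medians of -1.71 in replicate 1 and -0.70 in replicate 2. Over the 9 that reached the filter in both populations 6 fell, against 12.7% of all genes at that filter. Ube2c, Birc5, Cenpf and Top2a, all used in mitosis, had means of at most 0.200 in monocyte-gate cells and of 0.319 to 0.557 in the comparison cells. Ube2c, Birc5 and Cenpf averaged under 0.1 in the gated cells, so they were tested only through the comparison cells and could only come out as lower. Mki67 had a count in 8 of the 75 cells. Mcm3 and Mcm5, which load at replication origins, did not pass, with log2 differences of -0.53 and -0.13. In cells from the middle of the range of totals, the calls of Ube2c, Birc5 and Top2a were lost.

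Genes of antigen presentation were not settled. Of 9 MHC class II genes 5 were tested, 2 rose and 3 fell, namely Cd74 and H2-DMa against H2-Aa, H2-Ab1 and H2-Eb1, and the list's median was -1.61 in replicate 1 and 0.36 in replicate 2. H2-Aa, a chain of the class II dimer, had means of 0.0857 and 0.900 against 0.767 and 0.679, so that it was lower in one library and higher in the other. The calls of H2-Aa, H2-Ab1 and H2-Eb1 were lost without the block. H2-DMa, which helps load the peptide, had 3.20 and 4.70 against 1.22 and 1.16. Of 14 genes linked to dendritic cells, 4 were tested, 1 rose and 1 fell, which with 18.0% higher and 13.5% lower among all genes says nothing of the list. Mgl2, the gene that rose, was tested only through the gated cells, and of the 2 that reached the filter in both populations 1 fell. Itgax, which encodes CD11c, fell from 1.01 and 0.937 to 0.257 and 0.425. Mgl2 had no count in replicate 1 and a mean of 0.450 in replicate 2 against 0.00769 and 0.00766, so its call rests on replicate 2. Clec10a and Batf3 did not pass, with log2 differences of 0.62 and -0.68. Of 8 B-cell genes only Ighm was tested, and only through the gated cells, where it had means of 0.457 and 0.375 against 0.00793 and 0.0113, while Cd79a had no count.

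**Figure D3:**
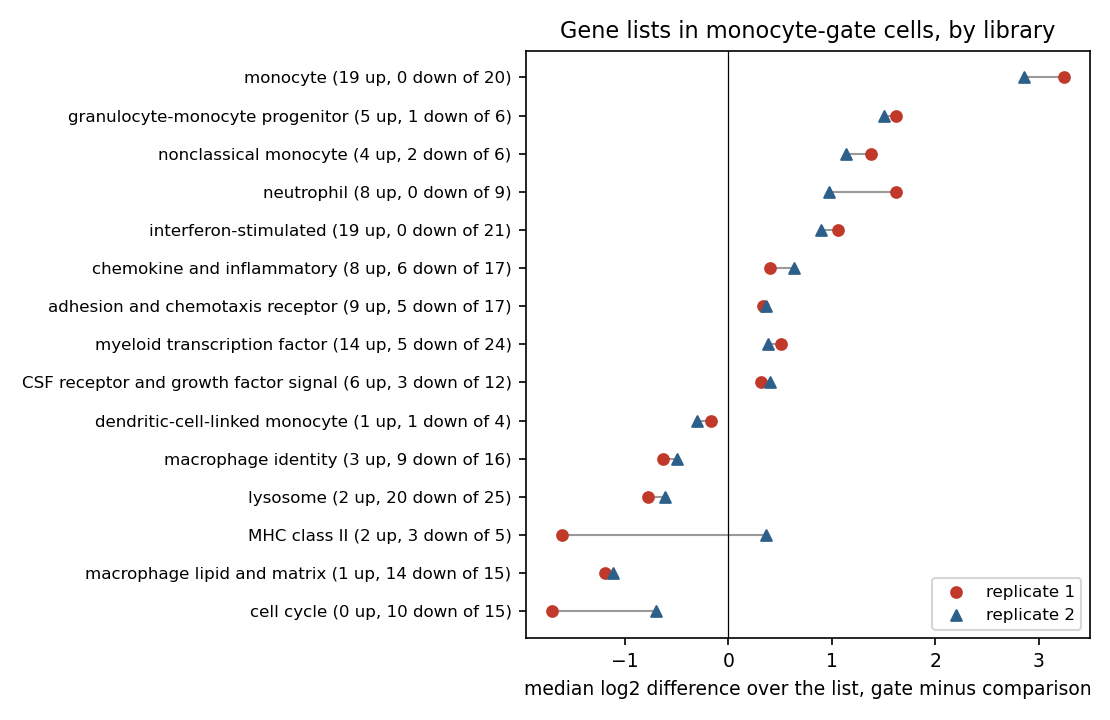
Median log2 difference, monocyte-gate minus comparison cells, over the tested genes of 15 lists in replicate 1 (circles) and replicate 2 (triangles), with the number of genes that rose and fell by limma beside each name. The monocyte list is farthest to the right at 3.25 and 2.85, the cell cycle list reached -1.71 and -0.70, and the MHC class II list is on both sides of 0.

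The 75 cells were not uniform. Fabp5, the fatty acid carrier, ranged from 1 to 397 counts with no cell between 17 and 30, a gap that was chosen as a split after the values were seen. Below it lay 46 cells, 24 and 22 in the libraries, and above it 29 cells, 11 and 18. In the comparison cells Fabp5 had medians of 218 and 219, and 5.89% and 6.13% of them were under 30. The gate thus held cells with little Fabp5 together with cells that reached the range of the comparison cells.

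Other genes, also chosen after their values were seen, followed the split in part. Ctsd, the lysosomal protease cathepsin D, had means of 50 and 44.05 in the cells with little Fabp5, 185 and 150 in those with more, and 244 and 239 in the comparison cells. Gpnmb went from 6.62 and 6.50 to 42.8 and 53.2, but its medians from 3 and 5 to 8 and 59, so that few cells carried the mean in replicate 1. C1qc went from 1.21 and 1.23 to 4.45 and 7.89, while the medians of C1qa, 1 and 1 below the split and 0 and 0.5 above it, did not follow. In the opposite direction, Ccr2 went from 32.4 and 27.7 to 14.0 and 17.5, Ly6c2 from 10.1 and 14.0 to 4.91 and 6.22, Plac8 from 39.1 and 39.0 to 23.4 and 20.3 and Saa3 from 295 and 257 to 107 and 159. Adgre1 stayed in 1 range, with 5.38 and 4.41 below and 4.91 and 4.61 above.

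All of these values are a description of a split made on the same cells. The means of Plac8 and Saa3 in the 29 cells with more Fabp5 were above those of the comparison cells, at 0.646 to 0.676 and 3.85 to 4.84, but single cells among them went down to 0 for Plac8 and 1 for Saa3. Their median total was 20025 and 19920 corrected counts, against 18060 and 17861 for the cells with less Fabp5, and the part of pairs of cells under 1 barcode was not tested. Across the 75 cells Fabp5 and Ctsd had a Spearman correlation of 0.66, and Fabp5 and Ly6c2 of -0.50, as descriptions. When only the 46 cells with little Fabp5 were compared with the macrophages, the log2 difference of C1qc was -3.72 in place of -2.45 and that of Trem2 -1.73 in place of -1.18. With these cells, 540 genes were over 1 log2 unit lower in both libraries.

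**Figure D4:**
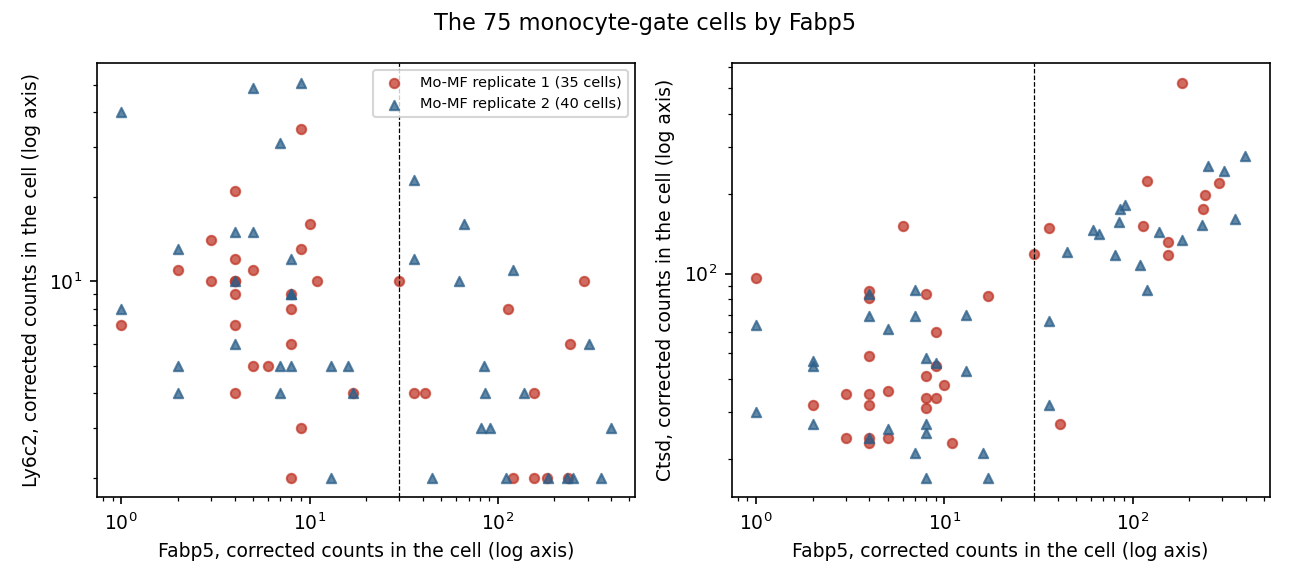
Each of the 75 monocyte-gate cells by its Fabp5 count (horizontal) and its Ly6c2 count (left) or Ctsd count (right), all on log axes; circles are replicate 1, triangles replicate 2, and the dashed line marks the split at 30. Cells to the left of the line had Fabp5 of at most 17, and most of them had less Ctsd than the cells to the right.

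Among comparison cells, those with Ccr2 differed in part from the rest. In the 332 and 375 comparison cells that had at least 1 Ccr2 count and no Ly6c2, Fabp5 had means of 125 and 122, Gpnmb of 39.3 and 39.96, Saa3 of 16.7 and 11.8 and Ifitm1 of 10.5 and 9.22. C1qc had means of 13.8 and 14.8. These means lay between those of all comparison cells and of the gated cells, but other genes did not: Mrc1, the mannose receptor gene, had means of 8.28 and 8.19 against 6.17 and 6.23 in all comparison cells, and Spp1, the gene of osteopontin, and Cd68 were also above them. The medians of Saa3 were 1 and 1 and those of Ifitm1 0 and 0, so that most of these cells had little of either gene, while the medians of Fabp5, 96 and 98, were also under the 218 and 219 of all comparison cells. Cells were grouped here by their own Ccr2 count, so this is a description.

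The same gate was applied to the TAM libraries as values per library with no test, since their columns could not be tied to single labelled samples. It held 249, 142, 186 and 190 cells, or 7.83%, 6.13%, 7.79% and 6.33% of the libraries, and the comparison gate held 882, 241, 387 and 421 cells. Of the cells in these libraries 44.7% to 67.7% were in the neutrophil gate, with 100 or more counts of S100a8 and S100a9, and their part in the tumor values was not tested. Shares in tumor and culture are not comparable as cell numbers, because TAM came from sorted tumor tissue and were normalized in a separate table, where gated cells had median totals of 8523 to 8629 corrected counts. Differences within each library are set side by side below, with a limit. The same count limits and the same added 0.1 were used, although gated culture cells had median totals of 18208 and 18072. The gates were thus not equally strict, and a Ly6c2 count of 0 asks less of a tumor cell.

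Marker differences had smaller values in tumors. Chil3 had means of 1.24, 1.23, 0.366 and 0.968 in gated cells and of 0.241, 0.432, 0.121 and 0.195 in the tumor comparison cells. Plac8 had 22.6, 19.3, 22.6 and 24.2 against 10.7, 15.6, 12.8 and 15.7. Tumor cells without Ly6c2 thus had much Plac8, and the log2 difference was 0.30 to 1.07 there against 5.46 and 5.36 in culture. Vcan differed by 0.81 to 1.28 on the log2 scale in tumors and by 7.04 and 6.22 in culture. Ccr2 averaged 3.19 to 5.06 in the tumor comparison cells.

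Several of the largest culture differences had small values or the other sign in tumors. Ifitm1 had means of 7.08, 6.65, 8.69 and 10.7 in gated tumor cells and of 12.4, 12.2, 13.4 and 15.5 in their comparison cells, lower in all 4 libraries. Il1b differed by -0.72 to 0.37, Saa3 by -0.47 to 1.14 and Egr1 by -1.73 to 0.07 on the log2 scale. Ednrb, among the largest decreases in culture, differed by -0.61 to 0.23. Whether tumor and culture differ was not tested.

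Other differences had the same sign in both. C1qc differed by -3.40 to -1.65, Mmp12 by -3.80 to -1.69, Fabp5 by -2.61 to -1.27 and Ccl8 by -2.56 to -2.30 in the 4 tumor libraries. Prtn3 was higher by 2.13 to 2.89 and Ly6c1 by 3.61 to 4.04. Ly6c1 may share reads with the gate gene Ly6c2, so its difference is not independent of the gate. By list, 17 of 20 monocyte genes were higher in all 4 tumor libraries, 14 of 21 interferon-stimulated genes were higher, 12 of 15 macrophage identity genes and 13 of 15 lipid and matrix genes were lower. Among MHC class II genes 6 of 8 were lower in all 4, where culture was mixed. Over all genes compared in tumors 26.4% were higher and 13.2% lower in all 4 libraries.

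Of the 6659 genes compared in tumors, 13 (0.195%) were over 1 log2 unit higher and 30 (0.451%) over 1 log2 unit lower in all 4 libraries. Of the higher genes, 8 were also over 1 log2 unit higher in both culture libraries, which is 61.5% of the tumor genes and 2.11% of the culture genes. Among them were Chil3, Hopx, Hp, Ifitm6, Prtn3, Wfdc21 and, with the limit given above, Ly6c1. Of the lower genes, 12 were shared, 40% of the tumor genes and 6.15% of the culture genes, among them the C1q genes, Acp5, Ctsk, Lpl and Pltp. Among 1486 genes called higher in culture and compared in tumors, 41.6% were higher in all 4 tumor libraries. Among 809 called lower, 36.0% were lower in all 4. Of the 1486 and 809 genes, 119 and 93 went the other way in all 4 tumor libraries. Both are smaller parts than the shares over all genes compared in tumors, 13.2% lower and 26.4% higher in all 4.

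**Figure D5:**
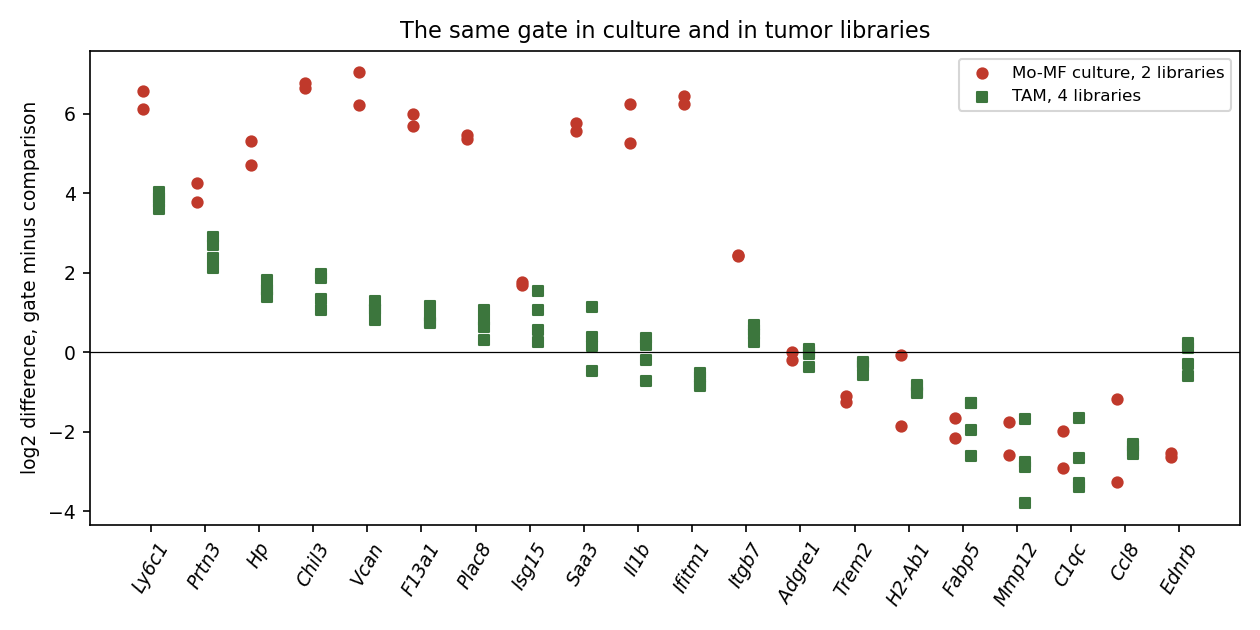
Log2 difference, gated minus comparison cells, of 20 genes in the 2 Mo-MF libraries (red circles) and the 4 TAM libraries (green squares), each against its own library's comparison cells. Ly6c1 and Prtn3 were above 0 and Fabp5, Mmp12, C1qc and Ccl8 below 0 in all 6 libraries, while Ifitm1 was between 6.24 and 6.44 in culture and between -0.86 and -0.53 in tumors. Ly6c1 is not independent of the gate gene Ly6c2.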

How the data were processed

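Single cells from 2 Mo-MF, 2 B-MF and 4 TAM libraries were used. ATAC-seq peak lists of the series were not used here. Per the study's methods and the submitters' notes, transcripts were counted with Cell Ranger and STAR on mm10, cells needed at least 1000 detected genes, and counts were corrected with SCTransform, which brings cells to a shared depth and hides that of sequencing. The values deposited are natural logs of each corrected count plus 1, in separate tables for culture and tumors. Converted back, values above 0 were whole within 1e-06. They are not raw counts, so count models were not fitted.

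Cells were chosen by counts, as described. The members, the gene lists and the tests were chosen with earlier results of these data known. Means per population and library plus 0.1 were compared on the log2 scale with limma (lmFit, eBayes with trend, library as block because both populations came from the same libraries), where the average over both populations and libraries reached 0.1, and p-values were adjusted over all these genes (Benjamini-Hochberg). The script was tested on simulated data. Named genes are the gate genes and markers, the 10 largest differences in each direction past the test, with equal signs and a mean of at least 0.5 in the higher population, and from each list up to 4 that passed and 2 that did not. Genes named beyond this rule, among them those set beside the Fabp5 split, the shared tumor genes and those with a promoter match, were chosen after their values were seen. Alternatives were other gates, filters, pseudocounts, scalings and fits, and each library left out. Genes absent from the table, such as Ace, Flt3, Xcr1 and Cd3e, were not analysed here. Software was limma 3.58.1 on R 4.3.3, and biopython 1.88, pandas 2.3.3, matplotlib 3.10.9, numpy 2.4.6 and scipy 1.17.1 on Python 3.11.15.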

Additional observations from a re-analysis of the deposited data

Results flagged for a closer look

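In 4 of 94 groups of 4 TAM library differences, 1 library lay apart from the others by Dixon's criterion, which chance meets in about 1 of 20 groups. These were differences between gated and comparison cells on the log2 scale. Naglu stood at -0.0123 in the separate library, Lcn2 at -0.15, Ighm at -0.42 and Ifit1 at 0.38.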

How the results depend on the processing

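Of 89 named genes that were tested, 69 were called. In all of the 16 other fits 53 of these were tested, and 48 kept call and direction in each. The filters of some fits left out the other 16, of which 9 kept call and direction wherever they were tested. The counts of higher and lower genes moved by over 1.5 times without limma's trend (857 and 653) and with a gate of at least 4 Ly6c2 and 2 Ccr2 counts (1024 and 740), and the lower count with a mean of at least 0.5 (576). Without the replicate block 1387 genes were higher and 908 lower, and 9 named calls were lost: Prss34, Ccl8, C1qa, Elane, Mgl2, H2-Eb1, H2-Ab1, H2-Aa and Csf1. Genes over 1 log2 unit higher in both libraries numbered 127 with a pseudocount of 1, and those lower 36 with a pseudocount of 1 and 540 (with 431 higher) with the cells under 30 Fabp5 counts, an alternative chosen after seeing the data, like that of gated cells with Csf1r. In a single library 486 to 546 genes were over 1 log2 unit higher and 358 to 450 lower, by construction more than in both. The share of 0.733% over both libraries became 0.576% with the stricter gate and 0.557% with S100a8 and S100a9 under 20. With 1 library left out, Mgl2 ranged from -0.11 to 2.35 and H2-Aa from -2.22 to 0.36 on the log2 scale, each with a change of sign. With 1 library left out no residual degree of freedom remains, so counts of calls were not refitted. The cause of these changes was not tested. Single genes in 35 and 40 cells are limited by the number of cells.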
